A study of Mus musculus with 6 samples.

Results

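The proteasome genes described here were the symbols beginning with Psma, Psmb, Psmc or Psmd and ending in a number, without the immunoproteasome genes Psmb8, Psmb9 and Psmb10. They were 36 of the 34714 gene symbols counted, 8 in the Psma class, 8 in Psmb, 6 in Psmc and 14 in Psmd. RNA was sequenced from the gastrocnemius (Gas) muscle of 3 wild-type (WT) and 3 miR-92b knockout (M92KO) mice, with 1 library for each mouse. All mice were 8 weeks old and untreated. The supplementary methods describe an overnight fast of the study's mice before muscle was taken, without naming the sequenced mice separately. The M92KO mice carried a germline, body-wide deletion of miR-92b on C57BL/6JGpt, and the study's methods describe males of a purchased line. The WT controls were age-matched C57BL/6 mice, which the methods do not call littermates, and the labels and the methods name different suppliers of the knockout, so that genotype and any difference of origin between the groups cannot be told apart. The deletion itself was not analysed here in these libraries. The question was how the subunit mRNAs of WT and M92KO muscle differed.

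The proteasome is the protease complex that degrades proteins marked with ubiquitin. Its barrel-shaped core is built of alpha rings, which gate the entrance, and beta rings, which hold the proteolytic sites. A cap binds the ubiquitin chain, removes it with a lid deubiquitinase, and unfolds and threads the substrate into the core with a ring of ATPases. In skeletal muscle the complex serves both normal protein turnover and the breakdown of myofibrillar proteins during wasting. The factor NRF1, encoded by Nfe2l1, is known to raise transcription of proteasome genes through antioxidant response elements when proteasome activity is short.

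Sequence features are given before the values, since the mice lacked a microRNA that binds through its seed and since the subunit genes are known to share promoter elements. The mature strands of miR-92b, from RefSeq, are shown 5′ to 3′ with the seed, bases 2 to 8, in capitals. They lie on the minus strand of GRCm38.p6, at chr3:89227126-89227147 for the 3p strand and chr3:89227165-89227188 for the 5p strand.
miR-92b-3p: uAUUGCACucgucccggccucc
miR-92b-5p: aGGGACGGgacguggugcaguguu
A match of 7 bases to the 3p seed, GTGCAAT, was found in the annotated 3′ UTR of 0 of the 36 members, against 7.0% of 20378 genes with a UTR of at least 20 bases. The corresponding match to the 5p seed, CCGTCCC, was found in 1 of the 36, against 3.1% of those genes. It was in Psmd3, which encodes a lid subunit, on the plus strand at chr11:98695746-98695752. It began at base 146 of a 3′ UTR of 379 bases, and it is printed in capitals within its surroundings, chr11:98695735-98695763.
Psmd3 site: ctgggagccaaCCGTCCCcttcttgctac
These matches describe the letters of the GENCODE M21 annotation and are not shown binding sites.

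Promoters of 300 bases, from 250 bases before to 50 after a start, were given by RefSeq for 29 of the 36 members, 31 windows in all. CCAAT, searched on both strands, was found in 12 of the 31 windows, against 37.4% of 32851 promoters of that length. TGACNNNGC, a core of the antioxidant response element, was found on either strand in 5 of the 31, against 12.4% of all promoters. The 5 genes were Psmb5, Psmb6, Psmc6, Psmd9 and Psmd12. In Psmb5, Psmb6 and Psmd9 the match began 47, 9 and 31 bases before the start site, and in Psmc6 and Psmd12 it began 227 and 247 bases before it. The windows of the first 3 genes are printed with the match in capitals, because the same 3 genes had the smallest differences between the genotypes, a choice made after their values were seen and not tested. They lie at chr14:54617946-54618245 on the minus strand (Psmb5), and on the plus strand at chr11:70525107-70525406 (Psmb6) and chr5:123227940-123228239 (Psmd9).
Psmb5: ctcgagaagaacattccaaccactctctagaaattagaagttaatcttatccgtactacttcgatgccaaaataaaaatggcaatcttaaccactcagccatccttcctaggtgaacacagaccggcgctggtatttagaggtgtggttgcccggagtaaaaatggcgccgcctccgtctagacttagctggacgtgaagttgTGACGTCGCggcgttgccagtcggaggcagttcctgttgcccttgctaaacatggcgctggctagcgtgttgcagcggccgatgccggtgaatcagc
Psmb6: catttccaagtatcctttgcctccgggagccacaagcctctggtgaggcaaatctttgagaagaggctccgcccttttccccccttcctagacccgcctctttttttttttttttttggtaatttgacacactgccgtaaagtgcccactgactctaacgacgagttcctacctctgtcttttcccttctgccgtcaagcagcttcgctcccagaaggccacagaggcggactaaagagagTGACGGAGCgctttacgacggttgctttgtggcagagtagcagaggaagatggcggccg
Psmd9: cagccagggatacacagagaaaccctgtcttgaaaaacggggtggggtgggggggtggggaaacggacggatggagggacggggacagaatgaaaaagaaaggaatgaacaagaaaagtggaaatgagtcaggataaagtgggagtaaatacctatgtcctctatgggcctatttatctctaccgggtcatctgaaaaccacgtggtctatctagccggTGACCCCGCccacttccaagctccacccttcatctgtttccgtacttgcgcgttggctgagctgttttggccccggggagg
A match says only that these letters are present, and no factor was measured at these sites.

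The libraries held between 33160508 and 48209846 counts, and the 3 M92KO libraries were the 3 smallest. In CPM, the counts of a gene scaled to the normalized library size, a floor of 3 counts came to at most 0.0905 CPM, and such floors cover counting error only. The first M92KO library stood apart from the other 2 M92KO libraries, with a chi-square per degree of freedom over genes of 58.3 and 58 against them, where those 2 differed from each other by 11.1 and the WT pairs by 12.8 to 29.1. Counts of members that rose, and the values of single members that moved by over 1.5 times, are also given without it. The fast-fibre genes listed were all present, with a summed level of 130586 to 146740 CPM in WT and 129755 to 139487 CPM in M92KO libraries. Of the 8 fast-fibre genes tested and the 6 slow-fibre genes tested, 0 differed.

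Of the 36 members, 34 passed the filter on low counts. Psma8, the alpha subunit of the testis, had 7, 0 and 5 counts in WT mice and 2, 0 and 3 counts in M92KO mice. Psmb11, the beta subunit of the thymus, had 0 counts in all 6 libraries. The other 34 were counted deeply, and the lowest count of a member in any library ran from 344 for Psmd10 to 9919 for Psmd2.

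With edgeR's quasi-likelihood test at the unadjusted p-value of 0.05 that the study uses, 16 of the 34 members tested (47.1%) rose in M92KO mice and 0 fell. Over all 15788 genes tested, 5.47% rose and 6.92% fell. A positive log2 fold change was found in 33 of the 34 members, against 50.0% of all genes, and the median was 0.16 on the log2 scale, against -8.07e-05 over all genes tested. The 16 members that rose did so by 11.6% to 24.5%. After Benjamini-Hochberg adjustment over all genes, 0 members passed, with adjusted p-values of 0.179 to 0.947, and 0.0% of all genes did. DESeq2's Wald test put Psma1, Psmd8 and Psmd14 past an adjusted p-value of 0.05, where 0.88% of all genes were higher at that threshold.

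In 23 of the 34 members the lowest M92KO value exceeded the highest WT value, against 8.77% of all genes. For a single gene, 3 mice against 3 cannot give a two-sided exact permutation p-value below 0.1, and the 23 members all had that value. The members together took 0.413%, 0.41% and 0.415% of all counts in WT mice and 0.458%, 0.451% and 0.445% in M92KO mice, so the groups did not overlap. Set against each member's WT mean, the median member stood at -0.03, -0.01 and 0.03 on the log2 scale in the WT libraries. In the M92KO libraries it stood at 0.16, 0.18 and 0.15. In these bulk samples, a change in the cells present and a change in the RNA of each cell cannot be told apart.

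**Figure D1:**
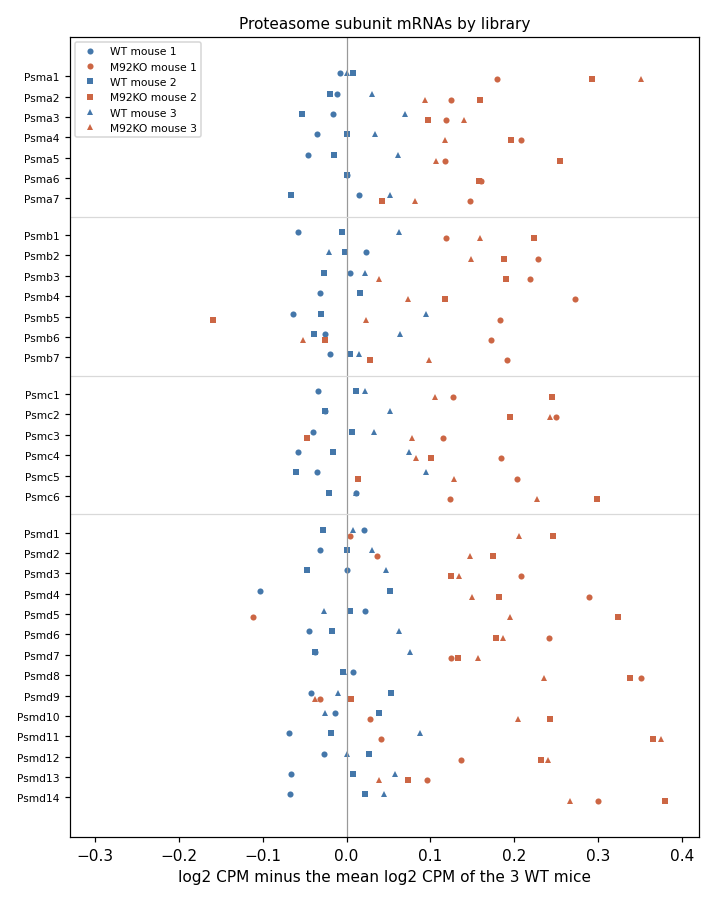
Each row is a subunit gene that was tested, and each point is 1 mouse. The horizontal axis gives log2 CPM minus the mean log2 CPM of the 3 WT mice, with WT in blue and M92KO in orange. In 23 of the 34 rows all orange points lie to the right of all blue points, and Psmb5, Psmb6 and Psmd9 show mixed points.

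The number of members that rose depended on single libraries. Without the first WT library 6 members rose, where 4.16% of all genes did, and without the second 8 rose, where 3.32% did. Without the first M92KO library 22 rose, where 9.62% of all genes did. By class, that fit had 5 higher in Psma, 2 in Psmb, 3 in Psmc and 12 in Psmd. In that fit 6 members (Psma1, Psmc6, Psmd8, Psmd11, Psmd12 and Psmd14) passed the adjusted threshold, where 1.81% of all genes were higher at it. The median of the members stayed between 0.14 and 0.17 on the log2 scale when each of the 6 libraries was left out, and 0 members fell in any of them.

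Transcript length also moved with the genotype difference. The members' annotated transcripts had a median length of 1586 bases. That of all genes tested was 3049 bases, that of the genes that rose 2482 and that of the genes that fell 3988. Among genes with transcripts of at most 1500 bases, the median log2 fold change was 0.06 over 2347 genes and 0.16 over the 15 members of that length, and 6 members rose, where 8.05% of those genes did. Between 1500 and 2500 bases it was 0.03 over 3253 genes and 0.19 over 12 members, 9 of which rose, where 6.76% of those genes did. From 2500 to 4000 bases 1 of 6 members rose, with a median of 0.12, where 4.81% of genes did, and of genes longer than 4000 bases the 1 member did not pass, where 4.03% did. After trends of a library with GC content and transcript length were removed, 13 members rose, where 6.41% of all genes did, and the members' median was 0.12.

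**Figure D2:**
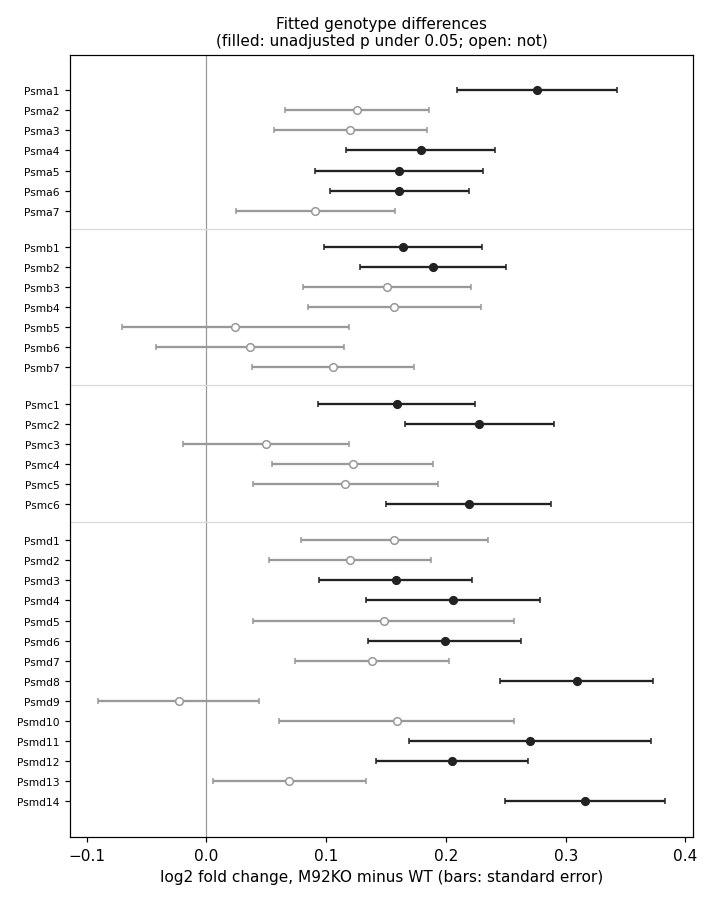
Rows are the 34 subunit genes tested, and the horizontal axis gives the fitted log2 fold change of M92KO against WT with its standard error. Filled points mark the 16 genes with an unadjusted p-value under 0.05. Points run from -0.02 for Psmd9 to 0.32 for Psmd14.

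Of the 7 alpha-ring members tested, 4 rose (Psma1, Psma4, Psma5 and Psma6), and the median log2 fold change was 0.16. Psma1 (chr7:114264606-114276118, minus strand) stood at 97.5, 98.5 and 98.0 CPM in WT and at 111, 120.1 and 125 CPM in M92KO libraries. All M92KO values lay above the narrow WT range. On the log2 scale the genotypes differed by 0.28 (standard error, SE, 0.0664, edgeR adjusted p = 0.188), the largest of the class. Psma4, of which an exon overlaps the antisense gene AY074887, stood at 96.3, 98.7 and 101 CPM in WT and at 114, 113 and 107 CPM in M92KO libraries. The fit put the log2 difference at 0.18 (SE 0.0621, edgeR adjusted p = 0.316). Psma6 had the most even values of the members tested. It stood at 143 CPM in every WT library, and at 159.8, 159.5 and 159.8 CPM in the M92KO libraries. The coefficient of variation between mice was 0.152% in WT and 0.0919% in M92KO, where the median member had 2.84% and 4.69%. At 5224 to 6805 counts a library, counting error alone is larger than these coefficients, so they do not measure how even the gene is between mice. The fitted log2 difference was 0.16 (SE 0.0579, edgeR adjusted p = 0.33). The values of Psma2 and Psma3 also did not overlap between the groups, with log2 fold changes of 0.13 and 0.12, but did not pass the test. Psma7 was the only member tested of this class whose groups overlapped, with a log2 fold change of 0.09.

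The beta ring was less even, with a median log2 fold change of 0.15, and of 0.095 without the first M92KO library. Of its 7 members tested, 2 rose, Psmb1 and Psmb2, and both belong to the structural subunits, which carry no proteolytic site. All 4 structural subunits had M92KO values above every WT value, and their log2 fold changes lay between 0.15 and 0.19. Psmb2 stood at 66.6, 65.5 and 64.6 CPM in WT and at 76.8, 74.7 and 72.7 CPM in M92KO libraries. Psmb2 had a log2 difference of 0.19 (SE 0.0608, edgeR adjusted p = 0.281). Psmb1 stood at 93.8, 97.3 and 102 CPM in WT and at 106, 114 and 109 CPM in M92KO libraries, a log2 fold change of 0.16 (SE 0.066, edgeR adjusted p = 0.373). Both genes were separated between the groups in every mouse. Psmb4 stood at 119, 123 and 123 CPM in WT and at 147, 132 and 128 CPM in M92KO libraries, with a log2 fold change of 0.16 (SE 0.0724, edgeR adjusted p = 0.431), or of 0.095 without the first M92KO library.

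The catalytic subunits are Psmb5 with chymotrypsin-like, Psmb6 with caspase-like and Psmb7 with trypsin-like activity. Of these 3, 0 passed the test. Psmb5 stood at 128, 131 and 143 CPM in WT and at 152, 119.9 and 136 CPM in M92KO libraries, so that the M92KO mice held both the highest and the lowest value. On the log2 scale the genotypes differed by 0.02 (SE 0.0948, edgeR adjusted p = 0.947). Psmb6 stood at 109, 108 and 116 CPM in WT and at 125, 109 and 107 CPM in M92KO libraries, a log2 fold change of 0.04 (SE 0.0785, edgeR adjusted p = 0.897). For both genes the first M92KO library was the highest of all 6, and without it the log2 fold changes were -0.06 for Psmb5 and -0.04 for Psmb6. Psmb7, of which an exon overlaps Nek6, stood at 234, 238 and 239.8 CPM in WT and at 271, 242 and 254 CPM in M92KO libraries. Its groups did not overlap, and its log2 fold change was 0.11 (SE 0.0677, edgeR adjusted p = 0.584). It was 0.062 without the first M92KO library. The mean log2 level of the catalytic subunits minus that of the structural ones was 0.72, 0.72 and 0.78 in the WT libraries. In the M92KO libraries it was 0.71, 0.51 and 0.66, lower than in any WT mouse. The first M92KO library, at 0.711, lay only just under the lowest WT library, at 0.718. This difference between the subunit kinds was not tested. Psmb5, Psmb6 and Psmd9 are the genes whose promoter windows are printed above. Psmc6 and Psmd12, which also hold the motif, rose. A link between the motif or its position and the fold changes was not tested. Windows were given for only 29 of the 36 members.

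The ATPase ring drives unfolding and opens the core gate. Of its 6 members, all of which were tested, 3 rose (Psmc1, Psmc2 and Psmc6), and the median log2 fold change was 0.14. Psmc2 (chr5:21785283-21803787, plus strand) stood at 133, 133 and 140.3 CPM in WT and at 161, 155 and 160.2 CPM in M92KO libraries. The gap between the groups was wider than the range within either. The fit put the log2 difference at 0.23 (SE 0.0618, edgeR adjusted p = 0.222). Psmc6 stood at 136, 133 and 136 CPM in WT and at 147, 166 and 158 CPM in M92KO libraries, a log2 fold change of 0.22 (SE 0.0688, edgeR adjusted p = 0.276). Psmc1 stood at 127, 131 and 132 CPM in WT and at 142, 154 and 139.8 CPM in M92KO libraries, a log2 fold change of 0.16 (SE 0.0655, edgeR adjusted p = 0.384). Both were higher in every M92KO mouse than in any WT mouse. Psmc4 was also separated, with a log2 fold change of 0.12, whereas the groups overlapped for Psmc3 and Psmc5, with log2 fold changes of 0.05 and 0.12, and of 0.015 and 0.07 without the first M92KO library.

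The Psmd class holds the lid, the base scaffold and ubiquitin receptor, and chaperones that help to assemble the base. Of its 14 members, all tested, 7 rose, and the median log2 fold change was 0.16. The lid accounted for 6 of them (Psmd3, Psmd6, Psmd8, Psmd11, Psmd12 and Psmd14) out of 8 lid members, with a median of 0.20. Without the first M92KO library 12 of the 14 Psmd members rose, where 9.62% of all genes did. Members outside the lid were among these 12. Psmd8 (chr7:29174188-29180701, minus strand), a structural lid subunit, stood at 171, 169.6 and 169.8 CPM in WT and at 217, 215 and 200.3 CPM in M92KO libraries. The lowest M92KO mouse was well clear of the WT mice. The fitted log2 difference was 0.31 (SE 0.0637, edgeR adjusted p = 0.179). Psmd14 (chr2:61711694-61800376, plus strand), the deubiquitinase that cuts the ubiquitin chain from the substrate, stood at 67.2, 71.5 and 72.6 CPM in WT and at 86.7, 91.6 and 84.7 CPM in M92KO libraries. It had the largest log2 fold change of all members, 0.32 (SE 0.0667, edgeR adjusted p = 0.179). Psmd12 stood at 158, 164 and 161 CPM in WT and at 177, 189 and 190.2 CPM in M92KO libraries, a log2 fold change of 0.21 (SE 0.0634, edgeR adjusted p = 0.266). Psmd11 differed in another way. It stood at 114, 118 and 127 CPM in WT and at 123, 154 and 155 CPM in M92KO libraries, so that the first M92KO mouse lay within the WT range and the other two above it. Psmd11 had a log2 difference of 0.27 (SE 0.101, edgeR adjusted p = 0.348). Psmd3, which holds the only seed match among the members, was higher by 0.16 and Psmd6 by 0.20 on the log2 scale. Psmd7 and Psmd13 did not pass, at 0.14 and 0.07, and an exon of Psmd13 overlaps Sirt3 on the other strand.

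In the base, the ubiquitin receptor gene Psmd4 (chr3:95032694-95042614, minus strand) rose. It stood at 115, 128 and 128 CPM in WT and at 151, 140.1 and 137 CPM in M92KO libraries, without overlap. On the log2 scale the genotypes differed by 0.21 (SE 0.0727, edgeR adjusted p = 0.324). The scaffold genes Psmd1 and Psmd2 had log2 fold changes of 0.16 and 0.12 and did not pass the test. Without the first M92KO library these were 0.23 and 0.16. Of the 3 assembly chaperones, Psmd5, Psmd9 and Psmd10, 0 passed with all libraries and in 0 were the groups separated. Psmd5 and Psmd10 had log2 fold changes of 0.15 and 0.16, and of 0.26 and 0.22 without the first M92KO library. Psmd9 stood at 26.4, 28.2 and 27.0 CPM in WT and at 26.6, 27.3 and 26.5 CPM in M92KO libraries, and all M92KO values lay within the WT range. It was the only member tested with a negative log2 fold change, -0.02 (SE 0.0673, edgeR adjusted p = 0.926). The exons of 9 of the 36 members overlap those of another gene, and the strandedness of the counting is not given in the sources used here, so reads of Psmd9 and Gm26745, for example, could not be told apart.

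Levels could be compared between genes only per length, as CPM per kb of the longest annotated coding transcript. In WT muscle the members ranged from 5.3 for Psmd5 to 205 for Psmb7, with a median of 76.1. The lowest and highest of a class were 29.5 and 137 in Psma, 49.6 and 205 in Psmb, and 59.2 and 119 in Psmc. In Psmd they were 5.3 and 115, a 21.7-fold range, and the lowest levels were those of the chaperone genes Psmd5 (5.3), Psmd10 (6.8) and Psmd9 (10.5). The other 11 Psmd genes lay between 42.0 and 115. The catalytic subunits headed the WT order with Psmb7 at 205 ± 2.36, Psmb5 at 149 ± 8.75 and Psmb6 at 139 ± 5.35 CPM per kb (SD, n = 3 mice), and Psma6 followed at 137. The difference between Psmb5 and Psmb6 was smaller than the sum of their SDs, and so was that between Psmb6 and Psma6 (SD 0.209). In M92KO muscle Psmb7 was again highest, at 220.4, and Psmd5 lowest, at 5.87. There Psma6, at 153, stood above Psmb5 at 151 and Psmb6 at 142, so the WT order did not hold.

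**Figure D3:**
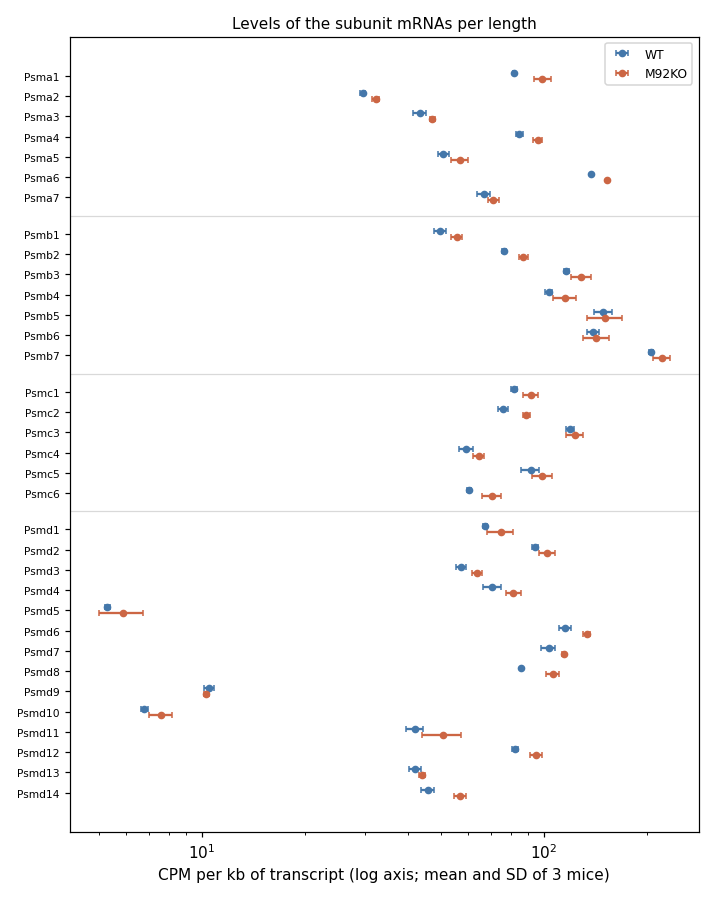
Rows are the 34 subunit genes tested, and the horizontal axis, on a log scale, gives CPM per kb of the longest coding transcript as the mean and SD of 3 mice. WT is blue and M92KO orange. The chaperone genes Psmd5, Psmd9 and Psmd10 stand below the other members, and Psmb7 stands highest.

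The other genes of the pathway were taken from hand-written lists. Of 52 listed genes 51 were tested, and the median log2 fold change was 0.04. In all, 5 rose (9.8%), where 5.47% of all genes tested did, and 3 fell, where 6.92% did. The same shares of all genes stand beside the counts of the single lists. Without the first M92KO library 12 rose, where 9.62% of all genes did, and 5 fell. Of the 3 immunoproteasome subunits, which replace the catalytic subunits in immune cells or after interferon, 0 passed. Psmb10 stood at 13.5, 12.2 and 11.5 CPM in WT and at 16.3, 11.2 and 13.7 CPM in M92KO libraries, and Psmb8 and Psmb9 overlapped likewise. The log2 fold changes were 0.08 (SE 0.17) for Psmb8, 0.19 (SE 0.279) for Psmb9 and 0.15 (SE 0.141) for Psmb10. Their median, 0.15, was similar to those of the constitutive classes, but it leaned on the first M92KO library, which was the highest of all libraries for each gene. Psmb8 stood at 12.2 CPM there and at 7.88 and 8.37 CPM in the other M92KO libraries. Psmb9 stood at 6.34 CPM there and at 3.02 and 3.58 CPM in the others. For Psmb8 the highest WT value was 9.46 CPM, and for Psmb9 it was 4.26 CPM. The 5 lymphocyte genes listed, of which 3 were tested, summed to at most 1.53 CPM in any library. Of the 5 genes of alternative caps and of the inhibitor Psmf1, 0 passed, and their log2 fold changes lay between -0.06 and 0.04. 
Among the 7 assembly factors 1 rose, Psmg2, a chaperone of the alpha ring, from 22.7 ± 0.845 to 26.4 ± 1.82 CPM (SD, n = 3 mice a group), by 0.22 on the log2 scale. Pomp, the maturation factor of the core, had a log2 fold change of 0.16 and did not pass. Among the 6 genes of proteins bound to the cap, 2 rose, all 6 had positive log2 fold changes, and the median was 0.14. Txnl1, a thioredoxin-like protein of the cap, stood at 93.2, 93.1 and 91.2 CPM in WT and at 102, 116 and 117 CPM in M92KO libraries, a log2 fold change of 0.27 (SE 0.0733, edgeR adjusted p = 0.216). Adrm1, a ubiquitin receptor, stood at 84.5, 78.1 and 83.1 CPM in WT and at 97.1, 93.7 and 88.7 CPM in M92KO libraries, a log2 fold change of 0.19 (SE 0.0675, edgeR adjusted p = 0.336). Both were separated between the groups, as 8.77% of all genes were in that direction.

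Of the 8 shuttle and segregase genes 1 rose, where 5.47% of all genes did. It was the shuttle Rad23b, with a log2 fold change of 0.18. The 4 ubiquitin genes and 2 ubiquitin-activating enzyme genes did not pass the test.

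The regulators of proteasome genes held changes in both directions, 1 higher and 3 lower out of 9. Over all genes tested, 5.47% rose and 6.92% fell. Nfe2l2, which encodes NRF2, stood at 68.2, 72.8 and 73.5 CPM in WT and at 54.0, 58.8 and 61.7 CPM in M92KO libraries, and fell by 0.297 on the log2 scale (SE 0.0732, edgeR adjusted p = 0.195). Ddi2, the protease that activates NRF1, stood at 40.7, 76.4 and 76.8 CPM in WT and at 43.0, 38.6 and 37.2 CPM in M92KO libraries. It fell by 0.706 on the log2 scale (SE 0.215, edgeR adjusted p = 0.261), but the first WT mouse lay among the M92KO mice, and exons of Ddi2 overlap Rsc1a1 on the same strand. Nfe2l1 and Mafk were chosen after their values were seen. Nfe2l1 stood at 549, 500.4 and 484 CPM in WT and at 518, 675 and 694 CPM in M92KO libraries, a log2 fold change of 0.30 (SE 0.117, edgeR adjusted p = 0.361), and the first M92KO mouse lay within the WT range. Mafk, a small partner of these factors, fell by 0.393 on the log2 scale, with overlapping values. Of 7 NRF2 target genes tested, 0 passed, with the largest log2 fold changes at 0.24 for Srxn1 and 0.23 for Nqo1.

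**Figure D4:**
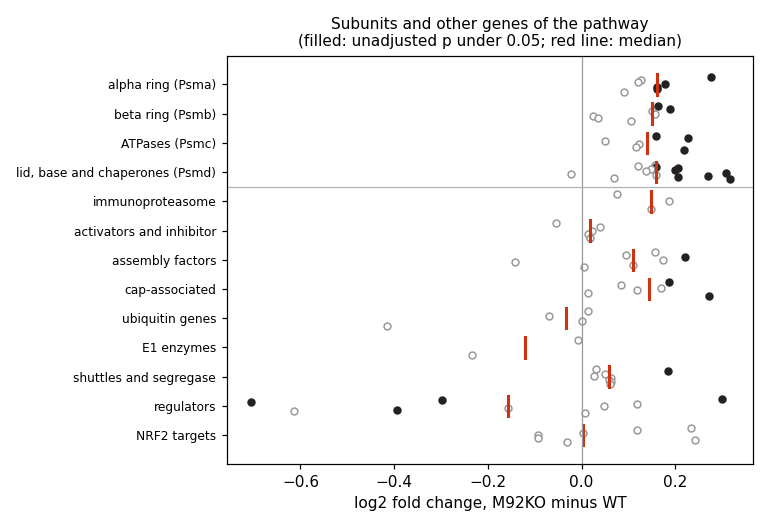
Points are genes, with the log2 fold change of M92KO against WT on the horizontal axis and the classes of subunits (above the grey line) and other lists of the pathway in rows. Filled points have an unadjusted p-value under 0.05 and red lines are medians. The 4 classes of subunits have medians of 0.14 to 0.16. The immunoproteasome and cap-associated genes have similar medians, 0.15 and 0.14, and the regulators range from -0.71 to 0.30. For each immunoproteasome gene the first M92KO library held the highest value.

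Some markers of other cell types fell in M92KO mice, where 6.92% of all genes tested fell. Fibroblast genes summed to 1421 to 1789 CPM in WT and 942 to 1331 CPM in M92KO libraries, and 2 of 6 fell. Of 5 tendon genes 3 fell (summed 99.2 to 124 CPM in WT and 92.7 to 113 CPM in M92KO), of 5 Schwann genes 3 fell (122 to 165 and 122 to 125 CPM), and of 6 endothelial genes 1 fell (862 to 948 and 778 to 933 CPM). The tendon, Schwann and endothelial sums overlapped between the groups. Of 6 macrophage, 5 red-cell, 5 fat-cell and 3 lymphocyte genes tested, 0 passed. All red-cell and fat-cell genes tested had positive log2 fold changes, with medians of 0.66 and 0.62. The macrophage and lymphocyte medians were -0.18 and -0.20. The part of these cell types in the differences of the subunits was not tested.

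**Figure D5:**
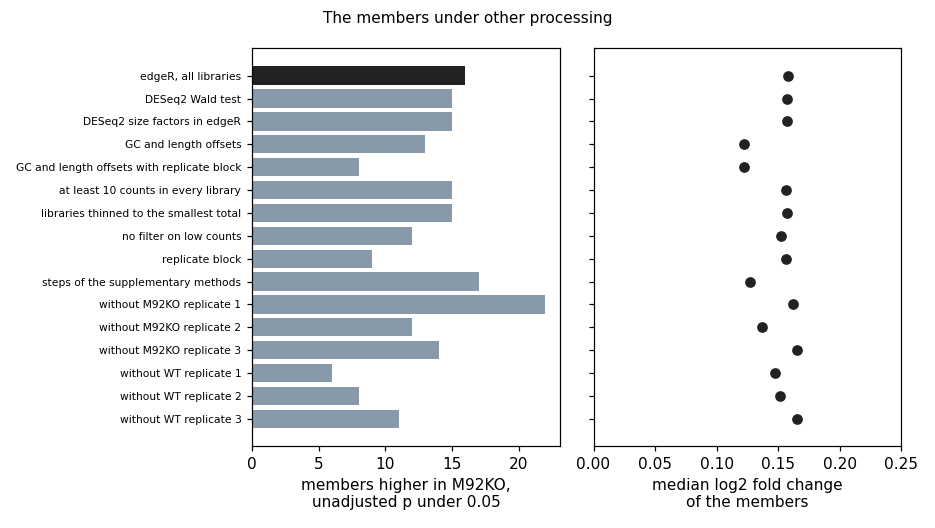
The left panel counts, for each way of processing (rows), the members higher in M92KO at an unadjusted p-value under 0.05, and the right panel gives the median log2 fold change of the members. Counts run from 6 without the first WT library to 22 without the first M92KO library, and the median stays between 0.12 and 0.17.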

How the data were processed

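Libraries were made from total RNA of Gas muscle with a SMARTer mRNA kit, per the labels. The authors deposited raw counts, the unnormalized number of reads on each gene symbol. The submitters' processing notes name GRCm38 (mm10), and the aligner, the counting program and the strandedness are not given in the sources used here. The main test was edgeR 4.0.16 in R 4.3.3 (filterByExpr, minimum count 10 and minimum total 15; TMM; glmQLFit and glmQLFTest without a covariate), and the Benjamini-Hochberg adjustment ran over all 15788 genes that passed the filter. The model was also run on simulated counts with larger changes than those of the members. That run was judged after adjustment, so it does not bear on calls at the unadjusted p-value. Totals ran from 33160508 to 48209846 counts. The p-values set the genotype difference against a spread between mice that was estimated with information shared across genes. Replicate numbers were not used to pair the mice. Deviations correlated at 0.0151 to 0.0806 between same-numbered libraries and at -0.0686 to 0.0365 between the others. Such small values cannot settle whether same-numbered mice were handled together.

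The members and lists were chosen with earlier results of these data known. Every library value is given for the 3 members of each class with the smallest p-value, the catalytic subunits, Psmd4, Psmd14, the 2 members with the largest p-value, any member with a negative fold change and those that failed the filter, and up to 2 genes of each other list were named. Others (Psmd11, Nfe2l1, Mafk, and further members given by 1 value) were named after their values were seen. Alternatives were DESeq2 1.42.0 (size factors or Wald test), other filters on low counts, the steps of the supplementary methods (quantile normalization of the counts, then log2 after adding 1, then limma 3.58.1), the replicate number as a block, lowess offsets for GC content and transcript length (span 0.3), thinned libraries and each library left out. Positions, transcripts and UTRs came from GENCODE M21, in which 25688 symbols matched directly and 418 by a synonym, and all 36 members matched. Protein sequences were not used here. Tables used Python 3.11.15, pandas 2.3.3 and numpy 2.4.6, and plots used matplotlib 3.10.9. Some genes under the naming rule are not reported here.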

Additional observations from a re-analysis of the deposited data

How the results depend on the processing

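Between 8 and 17 members rose under the alternatives that kept every library, against 16 in the reported fit, and 0 members fell in any alternative. The number of all genes with an unadjusted p-value under 0.05, in both directions, also shifted. It was 1955 of 15788 in the reported fit, 1691 with the replicate block, 2065 with offsets and 1710 with offsets and block. Without a filter it was 2207 of 23231, and with the supplementary steps 2287 of 34714. Psma1, Psmc2, Psmc6, Psmd8 and Psmd14 had an unadjusted p-value under 0.05 in all 15 alternatives, and Psmd12 in 14. The replicate block gave 9 members higher, 1 in Psma and 1 in Psmb, and 3 of the other pathway genes. The numbers are not known to pair the mice, and not every library correlated best with its own number. Offsets for GC content and length gave 2 in Psma, 1 in Psmb and 8 other pathway genes, with medians of 0.122 for all members, 0.116 for Psma, 0.085 for Psmb and 0.105 for Psmc. Offsets with the replicate block gave 8 members higher, 1 in Psma and 0 in Psmb, with medians of 0.122, 0.114, 0.082 and 0.104. Without a filter on low counts, 12 members and 1 Psmb gene were higher and the Psma median was 0.138. The steps of the supplementary methods gave medians of 0.127 for all members, 0.116 for Psma and 0.115 for Psmc, and 1 other pathway gene lower.

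With a library left out, 6 to 22 members were higher, 1 to 5 in Psma, 1 to 3 in Psmb and 2 to 12 in Psmd. The median ran from 0.137 to 0.165 for all members, from 0.131 to 0.161 for Psma, from 0.095 to 0.17 for Psmb and from 0.12 to 0.167 for Psmc. Other pathway genes ran from 3 to 12 higher and from 2 to 5 lower, and all genes with an unadjusted p-value under 0.05 from 1222 to 2984. The fits without the first WT library gave the fewest members and those without the first M92KO library the most.

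Of the 34 members tested, 3 changed direction in at least 1 alternative, and these 3 had not passed the test. Psmb5 was at -0.046 with offsets, -0.045 with offsets and block, -0.005 with the supplementary steps, and -0.063 to 0.107 with a library left out. Psmb6 was at -0.034 with offsets, with or without the block, and -0.037 to 0.079 with a library left out. Psmd9 ran from -0.045 to 0.003. Over all genes, 0 passed the adjusted threshold in the reported edgeR fit (1955 at an unadjusted p-value of 0.05). In the alternatives 312 passed with DESeq2, 42 with the supplementary steps, 6 without a filter, 2 with the block, with or without offsets, and 0 to 401 with a library left out, the most without the first M92KO library. The causes of these shifts were not tested. With 3 mice a group, exact tests of single genes could not pass 0.1.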
